A study of Homo sapiens with 9 samples.

Results

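NEAT1, MALAT1 and 5 proteins of the paraspeckle (NONO, SFPQ, PSPC1, HNRNPK and RBM14) were followed in a melanoma cell line after a short exposure to a PROTAC-like compound. These 7 genes, of the 62710 listed, were chosen by name for their known roles, with earlier results of these data known. RNA-seq was performed on A375R, a human melanoma line resistant to PLX4032, an analog of the BRAF inhibitor Vemurafenib, and normally kept in medium with that inhibitor. Cells were treated for 2 h with 10 µM R4VPL3-1, which joins a binder of the ubiquitin ligase RNF4 to a binder of the ligase VHL. Others received VHL-r, only the part that binds VHL, at 10 µM for 2 h. Controls received the solvent DMSO and were taken to be the samples titled WT, without dose or time. Among their data columns, those of DMSO libraries 2 and 3 are marked 2 h, and that of library 1 gives no time. Each treatment had 3 libraries, described in the methods as independent biological repeats of the one line, so 9 libraries were compared and none came from a second line. Deposited values are reads per gene divided by a size factor for each library, called normalized reads here.

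Paraspeckles are nuclear bodies built on the long noncoding RNA NEAT1. Its long isoform forms the scaffold and is coated by proteins of the DBHS family, NONO, SFPQ and PSPC1, while HNRNPK favours the long isoform over the short, polyadenylated one and RBM14 is needed to assemble the body. MALAT1, transcribed from the neighbouring gene, is an abundant RNA of nuclear speckles, where splicing factors gather, and both RNAs are known to respond to transcriptional and cellular stress.

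MALAT1 and the long isoform of NEAT1 do not end in a poly(A) tail. RNase P cuts their transcripts next to a genome-encoded A-rich tract, which folds with U-rich stretches upstream of it into a triple helix. Since these libraries were made from poly(A)-selected RNA, that end is shown for MALAT1 from the GRCh38 genome (chr11:65506011-65506120, + strand), with runs of 5 or more A or T in capitals. The longest run of A in the gene has 13 bases, at 65506098 to 65506110, and lies 406 bases before the annotated end. How much of either RNA was captured through such internal tracts was not tested, and a value per gene does not separate the isoforms of NEAT1.
MALAT1 3′ end: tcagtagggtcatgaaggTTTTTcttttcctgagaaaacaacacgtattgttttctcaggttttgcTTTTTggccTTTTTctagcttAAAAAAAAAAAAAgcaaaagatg

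Of the 7 genes, RefSeq's table of start sites (GRCh38.p14, 250 bases before to 50 after each start) held entries for MALAT1, NONO, PSPC1, HNRNPK and RBM14. Both MALAT1 windows are printed because MALAT1 is noncoding throughout and had a lower mean with VHL-r than in DMSO. That difference depended on the setting of the analysis, as described below. Capitals mark, on either strand, matches to the hypoxia response core ACGTG or its variant GCGTG, to the heat shock element written as GAANNTTC or in its other phase as TTCNNGAA, to the AP-1 site TGANTCA or to the antioxidant response core TGACNNNGC. The upstream window (chr11:65497488-65497787, + strand) held 2 matches to GCGTG and 2 to TGACNNNGC, the first run of capitals being made of both GCGTG matches and 1 of the others, which overlap, and the downstream window (chr11:65498795-65499094, + strand) held 1 match to GCGTG. Among all windows, GCGTG occurs in 36.5% and TGACNNNGC in 13.3% of the 35116 windows of that length, ACGTG in 21.4%, GAANNTTC in 6.77%, TTCNNGAA in 7.74% and TGANTCA in 7.71%, so these matches are common and are a description only.
MALAT1 upstream start: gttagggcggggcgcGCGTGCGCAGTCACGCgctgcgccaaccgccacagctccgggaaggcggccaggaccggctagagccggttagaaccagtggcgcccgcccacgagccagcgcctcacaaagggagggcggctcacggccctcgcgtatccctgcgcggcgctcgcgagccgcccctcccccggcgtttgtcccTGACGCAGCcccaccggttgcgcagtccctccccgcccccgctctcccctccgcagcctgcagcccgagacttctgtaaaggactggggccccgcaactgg
MALAT1 downstream start: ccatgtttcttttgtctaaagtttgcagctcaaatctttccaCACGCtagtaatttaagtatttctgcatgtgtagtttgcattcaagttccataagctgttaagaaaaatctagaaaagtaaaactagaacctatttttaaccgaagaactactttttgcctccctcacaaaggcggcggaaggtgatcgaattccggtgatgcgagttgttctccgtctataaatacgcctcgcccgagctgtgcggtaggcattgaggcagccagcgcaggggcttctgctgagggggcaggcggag

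The libraries held 26435568 to 32085626 reads, with a median of 28165279, and pairs of libraries of a treatment differed by more than counting noise (chi-square per degree of freedom 3.55 to 7.77). Of 8 markers of the melanocyte lineage and melanoma, 5 had a mean of at least 10. The lineage factor SOX10 ranged from 7900 to 17935 normalized reads and MITF from 892.7 to 1994. S100B ranged from 583.6 to 771.7. The pigment genes were uneven, with DCT at 914.1 to 1782, PMEL at 20.9 to 36.8 and TYRP1 at 1.1 to 33.6. MLANA was at 0 in every library and TYR held at most 2.1. The summed level of the 8 markers was 20733 to 22517 in DMSO, 11788 to 14670 with VHL-r and 10359 to 12525 with R4VPL3-1, and most of it was SOX10 (means 17547, 10200 and 8405). In the limma fit described next, SOX10 fell with both compounds (log2 -0.79 with VHL-r and -1.06 with R4VPL3-1) and was lower with R4VPL3-1 than with VHL-r (-0.28, limma adjusted p = 0.00951), and MITF fell with both (-0.71 and -0.77). The other 3 tested markers, PMEL, DCT and S100B, were not called, and the median over the 5 was -0.12 with VHL-r and -0.19 with R4VPL3-1. In the same order of treatments, markers of keratinocytes summed to 346.3 to 383.2, 295.2 to 314.4 and 241.8 to 297.5, those of fibroblasts to 1094 to 1451, 930.7 to 1929 and 1096 to 1415, and those of leukocytes to 10.9 to 25.6, 16.8 to 24.6 and 8.6 to 26.8. Of these 9, KRT14 was called lower with R4VPL3-1 (log2 -0.47, limma adjusted p = 0.00104) and LUM lower with VHL-r (-0.52, limma adjusted p = 0.0117). The part of these markers in the results was not tested.

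A limma fit covered all 15230 genes whose mean reached 10, and a gene was called changed where its p after Benjamini-Hochberg adjustment did not exceed 0.05. Differences are on the scale of log2(normalized reads + 1) and are given with standard errors (SE) and 95% intervals. Of the 7 genes, 6 entered the fit and RBM14 did not. With R4VPL3-1 against DMSO, 2 of the 6 were called, NEAT1 and SFPQ, both higher. The share of all tested genes called was 24.9%, with 13.1% higher and 11.8% lower. With VHL-r against DMSO, 3 of the 6 were called, SFPQ higher and NEAT1 and MALAT1 lower, beside 19.8% of all tested genes, 10.3% higher and 9.51% lower. Between R4VPL3-1 and VHL-r, NEAT1 alone of the 6 was called, higher with R4VPL3-1, beside 1.87% of all tested genes, 1.14% higher and 0.729% lower. The first and second comparisons share the DMSO libraries, and the third shares its libraries with both. With 6 genes, none of these shares says anything about the group as a group. Libraries of 2 treatments often did not overlap. Of all tested genes, 19.1% had every R4VPL3-1 library above every DMSO library and 18.9% had every one below. For VHL-r against DMSO these shares were 17.1% and 17.2%, and for R4VPL3-1 against VHL-r 6.99% and 7.11%.

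**Figure D1:**
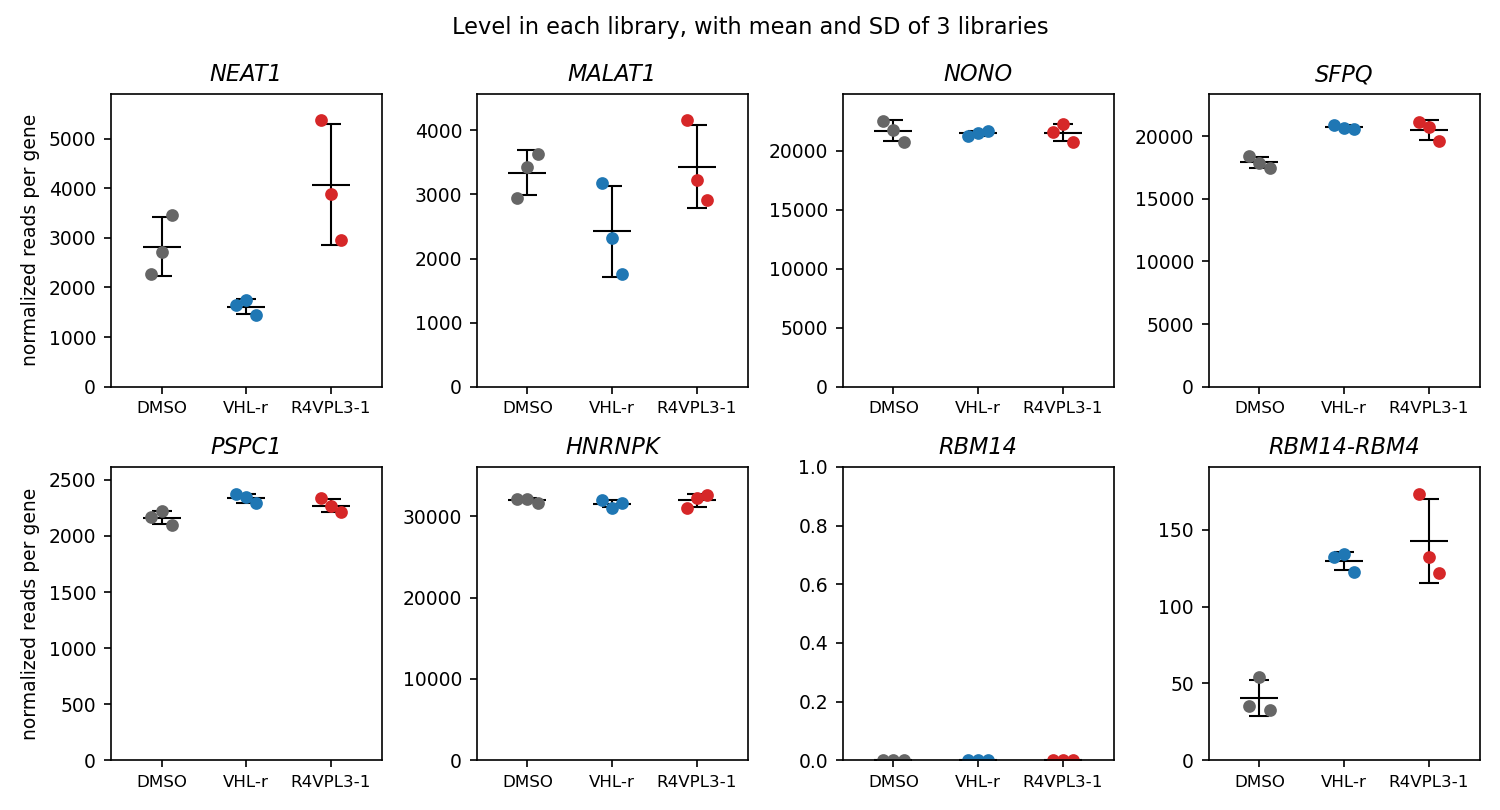
Normalized reads per gene (vertical axis, from 0) in each of the 3 libraries of DMSO, VHL-r and R4VPL3-1, for the 7 genes and the read-through gene RBM14-RBM4. Points are libraries, the wide bar is the mean and the error bars are the SD. NEAT1 spans 1446 to 1737 with VHL-r and 2954 to 5370 with R4VPL3-1, SFPQ is above DMSO in all 6 treated libraries, and RBM14 is at 0 in all 9.

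NEAT1 (ENSG00000245532, GRCh38 chr11:65422774-65445540, + strand, a single-exon long noncoding gene of 22767 bases) had a lower mean than DMSO with VHL-r and a higher mean with R4VPL3-1. DMSO libraries held 2274, 2722 and 3459 normalized reads (2818 ± 598.4, SD, n = 3). VHL-r libraries held 1652, 1737 and 1446 (1612 ± 149.7), and R4VPL3-1 libraries held 5370, 3873 and 2954 (4066 ± 1220). All VHL-r libraries were below all DMSO libraries, as for 17.2% of all tested genes, and below all R4VPL3-1 libraries, as for 6.99%. The lowest R4VPL3-1 library lay below the highest DMSO library. In bulk RNA, fewer cells expressing a gene and less RNA per cell cannot be told apart.

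Against VHL-r at the same dose and time, NEAT1 was 2.45-fold higher with R4VPL3-1, a log2 difference of 1.30 (SE 0.15, 95% interval 0.99 to 1.60, limma adjusted p = 9.59e-06). This is the one pair of compounds that the design allows to be compared. VHL-r lacks the linker and the part that binds RNF4, whose reactive chloro atom the paper also ties to modification of GPX4. Which of these features the difference rests on was not tested. Against DMSO, NEAT1 was 1.73-fold lower with VHL-r (log2 -0.79, SE 0.15, interval -1.10 to -0.48, limma adjusted p = 0.000496). With R4VPL3-1 it was 1.42-fold higher than in DMSO (log2 0.51, SE 0.15, interval 0.20 to 0.81, limma adjusted p = 0.0147).

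The 3 libraries of a treatment varied far more for NEAT1 than for the protein genes, and its calls depended on how that spread was estimated. The coefficient of variation was 21.2% in DMSO, 9.29% with VHL-r and 30.0% with R4VPL3-1, against 0.798% to 4.17% for NONO, SFPQ, PSPC1 and HNRNPK. With limma's robust option, which lets a gene with unusual spread keep more of its own variance, the differences were the same and the adjusted p was 0.0763 between the compounds, 0.0798 for VHL-r and 0.211 for R4VPL3-1, each the highest of the 21 alternative settings. Over those settings the lowest adjusted p from limma, edgeR or DESeq2 was 1.97e-07, 8.7e-06 and 0.000335.

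The rise over DMSO with R4VPL3-1 was the least stable of the 3. It missed the threshold with DESeq2 (adjusted p = 0.146), without DMSO library 1 (log2 0.36, limma adjusted p = 0.092) and without R4VPL3-1 library 1 (log2 0.28, limma adjusted p = 0.110). Leaving out any single library kept the other 2 NEAT1 calls, with differences of 1.07 to 1.504 between the compounds and -0.93 to -0.63 for VHL-r against DMSO.

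**Figure D2:**
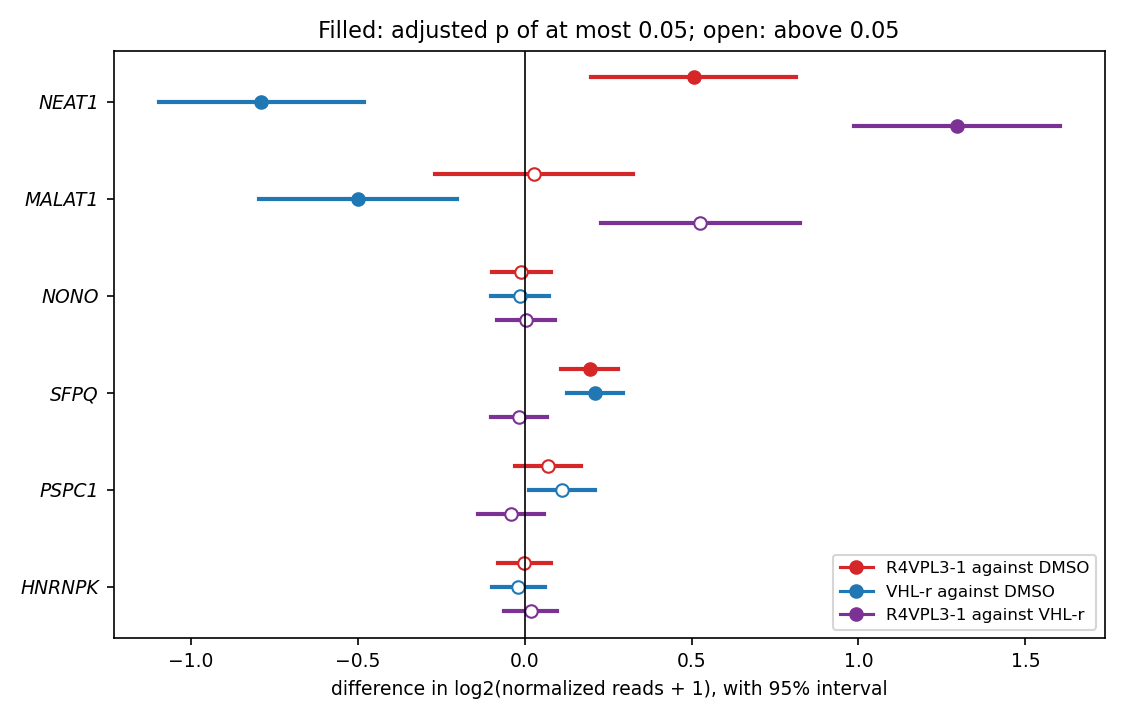
Difference in log2(normalized reads + 1), horizontal axis, with its 95% interval (line) for the 6 tested genes in the 3 comparisons; filled points have a limma adjusted p of at most 0.05. NEAT1 lies at 0.51, -0.79 and 1.30, SFPQ lies at 0.19 and 0.21 against DMSO, and the intervals of NONO and HNRNPK span 0 in every comparison.

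MALAT1 (ENSG00000251562, GRCh38 chr11:65497688-65506516, + strand in the deposited coordinates) starts 52.1 kb beyond the end of NEAT1. DMSO libraries held 2952, 3426 and 3638 normalized reads (3339 ± 351.3, SD, n = 3). VHL-r libraries held 3182, 2328 and 1762 (2424 ± 715.2), and R4VPL3-1 libraries held 4160, 3220 and 2913 (3431 ± 649.5). The highest VHL-r library was above the lowest DMSO library, so no pair of treatments was separated by its libraries.

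MALAT1 was 1.413-fold lower with VHL-r than in DMSO (log2 -0.50, SE 0.14, interval -0.80 to -0.20, limma adjusted p = 0.016). Between R4VPL3-1 and DMSO the difference was 0.03 (SE 0.14, interval -0.27 to 0.33, limma adjusted p = 0.919). R4VPL3-1 stood 1.44-fold above VHL-r (log2 0.53, SE 0.14, interval 0.23 to 0.82), which missed the threshold after adjustment (limma adjusted p = 0.0673). The 2 compounds were therefore not shown to differ in MALAT1 in this fit, and the interval allows a difference of up to 0.82.

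Which libraries entered and how they were fitted decided both of these results. The fall with VHL-r was lost without DMSO library 2 (limma adjusted p = 0.0526) or 3 (0.0678), without VHL-r library 2 (0.0564) or 3 (log2 -0.29, 0.114), with DESeq2 (0.218) and with the robust option (0.233), and over all settings its adjusted p ran from 0.000318. The difference between the compounds passed without DMSO library 1 (limma adjusted p = 0.0495), without VHL-r library 1 (log2 0.74, 0.00132) and without R4VPL3-1 library 3 (0.0266). It also passed with a replicate block (limma adjusted p = 0.00769), and over all settings its adjusted p ran up to 0.583. The plot of all settings shows both genes side by side.

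**Figure D3:**
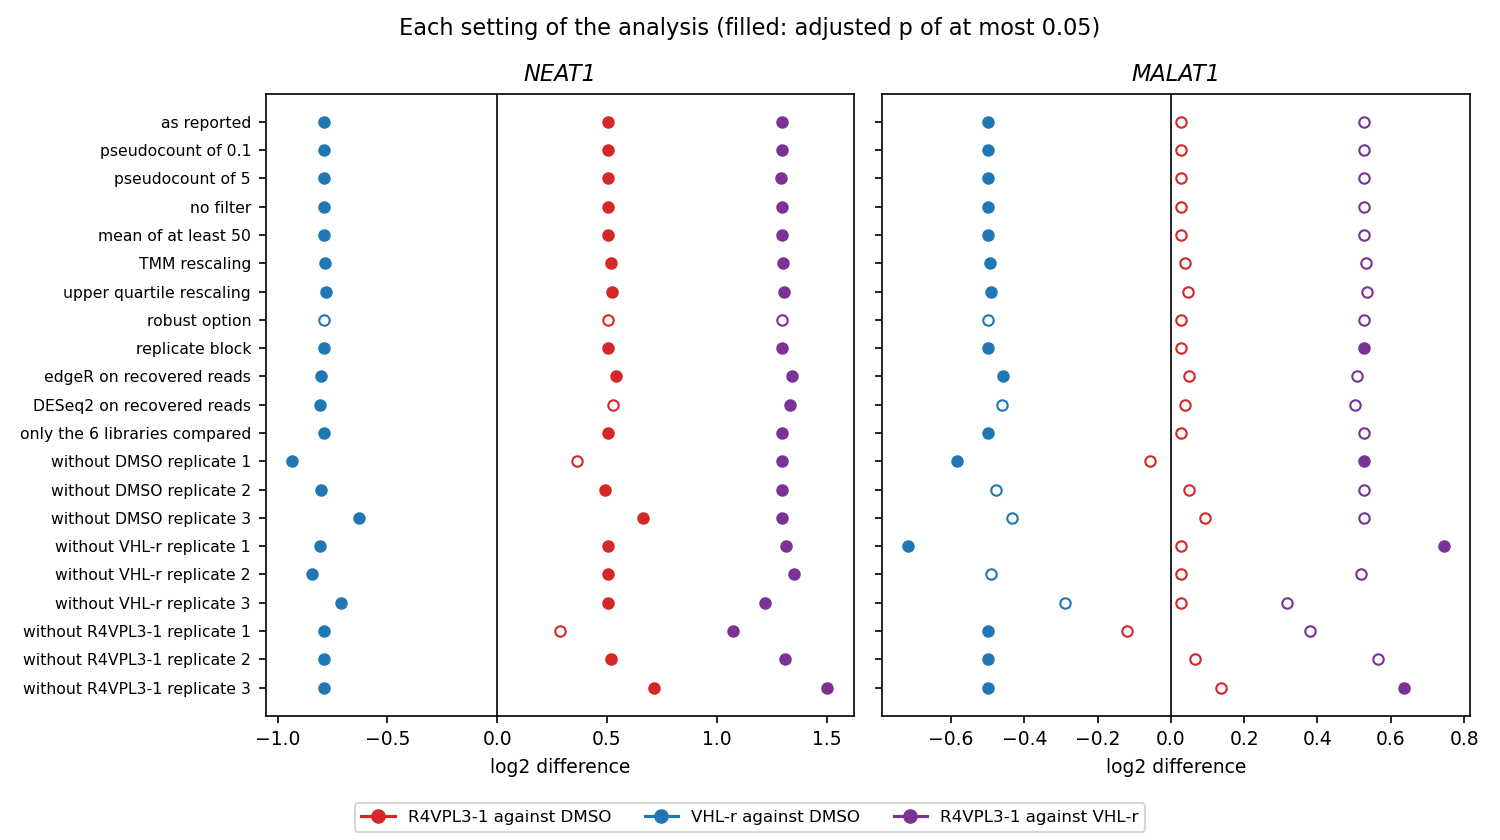
Log2 difference (horizontal axis) of NEAT1 and MALAT1 under each setting of the analysis (1 line per setting), coloured by comparison; filled points have an adjusted p of at most 0.05. The direction of NEAT1 held in every setting, from 0.28 to 0.72 and from -0.93 to -0.63 against DMSO and from 1.07 to 1.504 between the compounds, and all its points are open on the line of the robust option; MALAT1 with R4VPL3-1 against DMSO ran from -0.12 to 0.14 on both sides of 0.

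SFPQ (ENSG00000116560, chr1:35176378-35193446, - strand), the DBHS protein that also acts in splicing and transcription, rose with both compounds. DMSO libraries held 18418, 17829 and 17493 normalized reads (17913 ± 468.5, SD, n = 3). VHL-r libraries held 20923, 20679 and 20607 (20737 ± 165.4), and R4VPL3-1 libraries held 21163, 20714 and 19641 (20506 ± 782.2). Every treated library was above every DMSO library, as for 19.1% of all tested genes with R4VPL3-1 and 17.1% with VHL-r. The 2 treatments overlapped. The rise was small, 1.14-fold with R4VPL3-1 (log2 0.19, SE 0.04, interval 0.11 to 0.28, limma adjusted p = 0.00107) and 1.16-fold with VHL-r (log2 0.21, SE 0.04, interval 0.13 to 0.30, limma adjusted p = 0.000622), and was called in every alternative setting. Between the compounds the difference was -0.02 (interval -0.10 to 0.07, limma adjusted p = 0.962).

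PSPC1 (ENSG00000121390, chr13:19674752-19783019, - strand) is the third DBHS protein. It held 2101 to 2220 normalized reads in DMSO (2162 ± 59.3), 2295 to 2374 with VHL-r (2338 ± 39.6) and 2216 to 2335 with R4VPL3-1 (2272 ± 60.0). All VHL-r libraries were above all DMSO libraries, as for 17.1% of all tested genes. The difference of 0.11 (SE 0.047, interval 0.01 to 0.21) did not pass after adjustment (limma adjusted p = 0.105). With R4VPL3-1 it was 0.07 against DMSO (interval -0.03 to 0.17, limma adjusted p = 0.306) and -0.04 against VHL-r (interval -0.14 to 0.06, limma adjusted p = 0.891).

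NONO (ENSG00000147140, chrX:71254814-71301522, + strand), the partner of SFPQ in most DBHS dimers, moved by less than its spread between libraries. Its libraries held 20741 to 22542 normalized reads in DMSO (21689 ± 904.4), 21231 to 21682 with VHL-r (21482 ± 229.6) and 20778 to 22290 with R4VPL3-1 (21541 ± 756.0). The differences were -0.01 with R4VPL3-1 (interval -0.10 to 0.08, limma adjusted p = 0.905), -0.01 with VHL-r (interval -0.10 to 0.07, limma adjusted p = 0.877) and 0.00 between the compounds (interval -0.08 to 0.09, limma adjusted p = 0.993). The R4VPL3-1 difference changed sign with upper quartile scaling.

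HNRNPK (ENSG00000165119, chr9:83968083-83980631, - strand), an abundant RNA-binding protein, held 31676 to 32166 normalized reads in DMSO (31974 ± 261.3), 31078 to 31956 with VHL-r (31559 ± 445.1) and 31028 to 32624 with R4VPL3-1 (31955 ± 828.5). All treatments overlapped. The differences were 0.00 with R4VPL3-1 (interval -0.08 to 0.08, limma adjusted p = 0.989), -0.02 with VHL-r (interval -0.10 to 0.06, limma adjusted p = 0.799) and 0.02 between the compounds (interval -0.06 to 0.10, limma adjusted p = 0.952), and none was called in any setting. The R4VPL3-1 difference changed sign with TMM and upper quartile scaling.

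RBM14 (ENSG00000239306, chr11:66616626-66629934, + strand) was listed at 0 in all 9 libraries, and this is not a measure of its expression. Its whole body lies inside that of the read-through gene RBM14-RBM4 (ENSG00000248643, chr11:66616626-66646469), although only 6.67% of its exon bases are shared. Among protein-coding genes that lie inside another gene of their strand and share under 10% of exon bases, 259 of 260 (99.6%) were at 0 in every library, against 1961 of 13254 (14.8%) of those with no other gene on their strand. The deposited values therefore behave as if reads were counted over whole gene bodies, introns included, with reads on overlapping bodies left out.

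RBM14-RBM4 itself could take reads on 8732 bases alone, between the end of RBM14 and the start of RBM4. On those bases DMSO libraries held 35.4, 54.1 and 32.5 normalized reads, VHL-r libraries 132.1, 134.5 and 122.9, and R4VPL3-1 libraries 173.7, 132.3 and 122.1. All treated libraries were above all DMSO libraries, as for 19.1% of all tested genes with R4VPL3-1 and 17.1% with VHL-r. The difference was 1.81 with R4VPL3-1 (SE 0.18, 3.495-fold, limma adjusted p = 2.09e-07) and 1.69 with VHL-r (SE 0.18, 3.22-fold, limma adjusted p = 8.5e-07), and 0.12 between the compounds (interval -0.26 to 0.50, limma adjusted p = 0.926). These reads lie downstream of RBM14 and do not give its level. RBM4, downstream on the same strand, averaged 98.5, 108.5 and 113.4 in DMSO, VHL-r and R4VPL3-1 over the 21905 bases of its own and was called in neither treatment (limma adjusted p = 0.569 and 0.33).

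Levels of different genes were compared per kb of exon, which leaves the intronic reads in the value. MALAT1 was instead divided by 8.829 kb, its length in the deposited coordinates. HNRNPK was highest with means of 5537 to 5609 normalized reads per kb over the 3 treatments, followed by SFPQ at 2320 to 2686 and NONO at 1914 to 1933. PSPC1 followed at 448.9 to 485.3 per kb, MALAT1 at 274.5 to 388.6 and NEAT1 at 70.8 to 178.6. The order was the same in each treatment. NEAT1 was divided by 22.767 kb, the whole gene, although its isoforms differ in length and were not separated. How well poly(A) selection captured NEAT1 and MALAT1 was not tested. Their place below the protein genes is therefore not a measure of their abundance. Among neighbours in it, PSPC1 and MALAT1 overlapped with R4VPL3-1 (460.1 to 484.8 against 329.9 to 471.2 per kb), and every other pair of neighbours was separated in every treatment.

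NEAT1 and MALAT1 lie in a gene-rich stretch of chromosome 11. Within 250 kb of either, 58 genes were listed and 22 others were tested. With R4VPL3-1 against DMSO, 4 of the 22 were higher and 4 lower (36.4%, beside 24.9% of all tested genes). With VHL-r 4 were higher and 2 lower (27.3%, beside 19.8%), and between the compounds 1 was higher and 1 lower (9.1%, beside 1.87%).

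Both genes called between the compounds flank NEAT1. The unnamed long noncoding gene ENSG00000291174 begins 9.7 kb beyond its end and held 7.3, 8.9 and 10.1 normalized reads in DMSO, 15.0, 27.3 and 14.3 with VHL-r and 82.2, 55.7 and 30.0 with R4VPL3-1. The 3 treatments did not overlap. Of all tested genes, 19.1% with R4VPL3-1 and 17.1% with VHL-r lay wholly above DMSO, and 6.99% with R4VPL3-1 lay wholly above VHL-r. It was higher by 2.44 with R4VPL3-1 (SE 0.34, limma adjusted p = 1.52e-05) and by 0.98 with VHL-r (limma adjusted p = 0.0494), and by 1.46 between the compounds (limma adjusted p = 0.0242), so unlike NEAT1 it stood above DMSO with VHL-r.

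FRMD8, 9.2 kb upstream of NEAT1, codes for a protein that binds iRhom proteins at the cell surface. It held 2444 to 2646 normalized reads in DMSO, 2310 to 2475 with VHL-r and 1864 to 2166 with R4VPL3-1. It fell with R4VPL3-1 against DMSO (log2 -0.34, SE 0.056, limma adjusted p = 9.7e-05) and lay below VHL-r (-0.24, limma adjusted p = 0.023), while VHL-r against DMSO gave -0.10 (interval -0.22 to 0.02, limma adjusted p = 0.241).

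Farther out, SLC22A20P rose with both compounds (log2 1.07 and 1.97 for R4VPL3-1 and VHL-r), as did TIGD3 (1.57 and 1.16), both at no more than 51.4 normalized reads. SLC25A45, a mitochondrial carrier, fell with both (-0.54 and -0.48), as did KAT5, a histone acetyltransferase (-0.28 and -0.26). ENSG00000285816 was called higher (0.41) and PCNX3 lower (-0.16) with R4VPL3-1, and RNASEH2C, a subunit of RNase H2, higher with VHL-r (0.16), while the other compound gave 0.37, -0.10 and 0.14, none called. TALAM1, the antisense RNA across MALAT1, held at most 4.28 normalized reads in any library and was not tested.

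**Figure D4:**
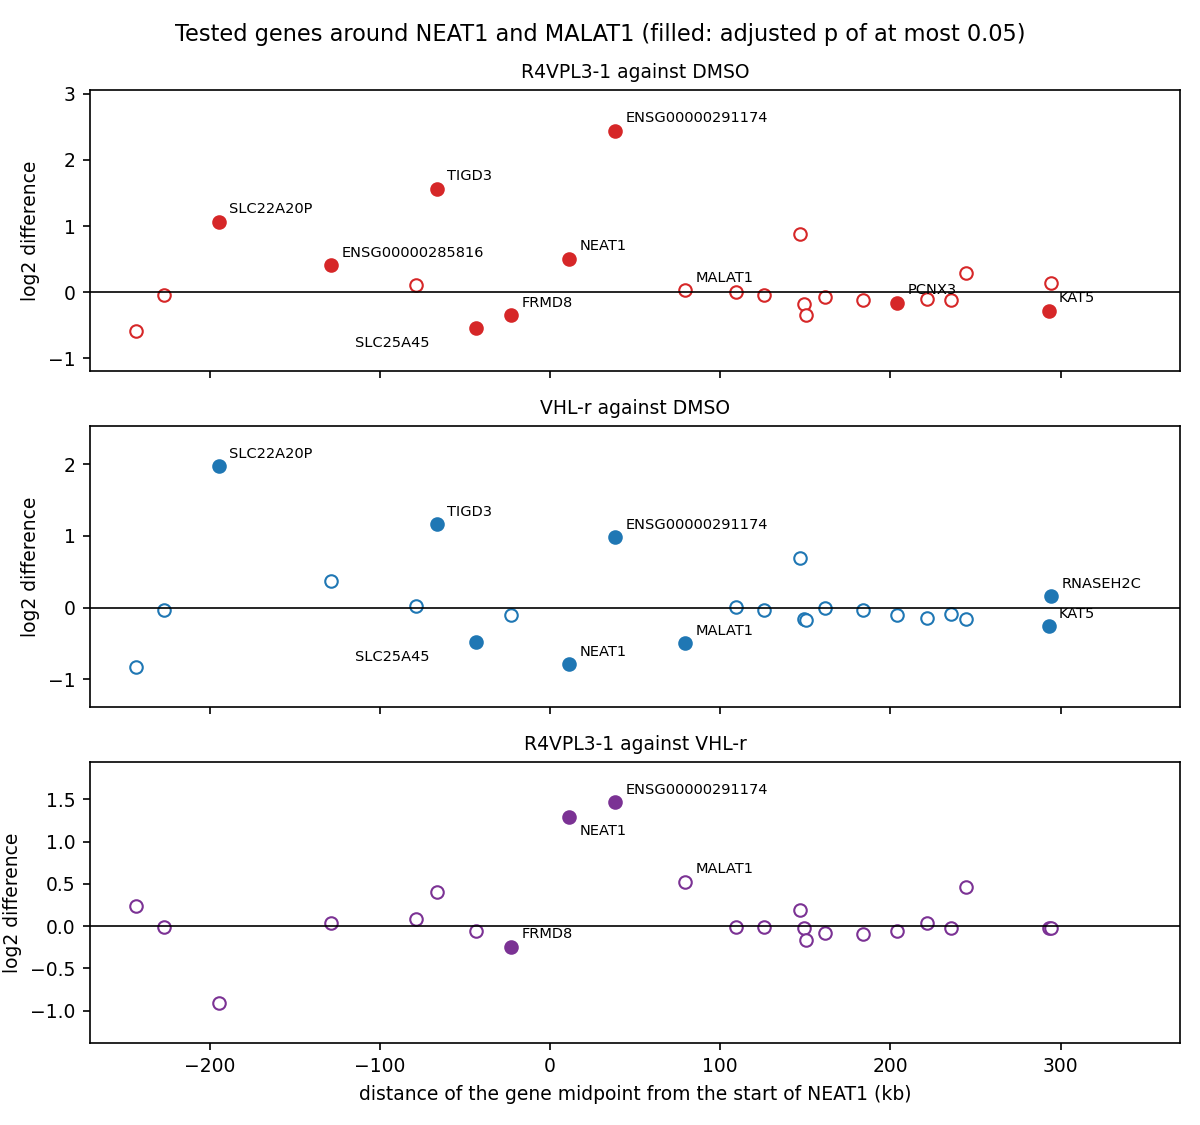
Log2 difference (vertical axis) of the 24 tested genes around NEAT1 and MALAT1 against the distance of each gene's midpoint from the start of NEAT1 in kb (horizontal axis), 1 panel per comparison; filled points have a limma adjusted p of at most 0.05 and are named, as is MALAT1. Between the compounds, NEAT1 (1.30), ENSG00000291174 (1.46) and FRMD8 (-0.24) are the filled points, and the others are open.

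Other proteins known to localize to paraspeckles were taken as a list of 39. MATR3 appears under 2 overlapping gene entries, and 35 entries were tested. HNRNPA1, RBM12 and 1 MATR3 entry were at 0 in every library with their whole bodies inside another gene, as for RBM14. With R4VPL3-1, 5 were higher and 9 lower (40.0%, beside 24.9% of all tested genes), and the list's median difference was -0.04 beside -0.01 over all genes. With VHL-r, 5 were higher and 6 lower (31.4%, beside 19.8%), with a median of -0.03 beside 0.00.

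Between the compounds, where 1.87% of all tested genes were called, limma and edgeR called 0 of the 35 and DESeq2 0 of the 34 to which it gave an adjusted p, with 4 at an unadjusted p under 0.05 in limma. AKAP8L, a nuclear anchoring protein, was higher with R4VPL3-1 (2348 against 1708 normalized reads in DMSO, log2 0.46, limma adjusted p = 7.2e-06) and with VHL-r (2105, log2 0.30, limma adjusted p = 0.000941). TOE1, a deadenylase of small nuclear RNAs, was lower with both (log2 -0.42 and -0.35), and so was the transcription factor RUNX3 (-0.33 and -0.35). The zinc finger gene ZC3H6 rose with both from a low level of 27.1 normalized reads (0.61 and 0.69, limma adjusted p = 0.0498 and 0.0323).

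Of 24 nuclear speckle proteins tested, 6 were lower and none higher with R4VPL3-1 (25%, beside 24.9% of all tested genes called and 11.8% called lower), and 4 were lower and none higher with VHL-r (16.7%, beside 19.8% called and 9.51% called lower). The shares called in both directions together are close to the background, while the shares called lower are above it, which was not tested. The list's medians were -0.05 and -0.03 beside -0.01 and 0.00 over all genes. The kinase PRPF4B fell with both compounds (log2 -0.35 and -0.26), as did the splicing factors SRSF7 (-0.22 and -0.25) and SRSF4 (-0.20 and -0.28), and SRRM1 fell with R4VPL3-1 (-0.23, libraries overlapping), with -0.20 with VHL-r not called. SRSF6 was called lower with VHL-r (-0.53, and -0.32 with R4VPL3-1 not called), but 98.0% of its body lies on another gene and its value of 67.6 against 97.1 rests on the rest. Between the compounds limma and edgeR called 0 of the 24 and DESeq2 0 of the 23 with an adjusted p, beside 1.87% of all tested genes, with 1 at an unadjusted p under 0.05 in limma.

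Of 12 other well-known long noncoding RNAs, 7 were tested, and CYTOR, DANCR and OIP5-AS1 were at 0 with 99.4% to 99.9% of their bodies on another gene, and MEG3 and MIAT were at no more than 7.0 normalized reads. With R4VPL3-1 3 were higher and 2 lower (71.4%, beside 24.9% of all tested genes, median 0.07), and with VHL-r 1 was higher and 3 lower (57.1%, beside 19.8%, median -0.16). KCNQ1OT1, the imprinted antisense RNA, was higher with both (log2 0.95 and 0.89, with VHL-r overlapping DMSO), while LINC-PINT was lower with both (-0.63 and -0.61). NORAD, which binds Pumilio proteins, fell with both (-0.22 with R4VPL3-1 and -0.24 with VHL-r). TUG1 was called lower with VHL-r (-0.16), with a value of -0.06 with R4VPL3-1. GAS5, a host of small nucleolar RNAs, held 7586 normalized reads with R4VPL3-1 against 5721 in DMSO and 5696 with VHL-r. It was the one of the 7 called between the compounds (14.3%, beside 1.87%, list median 0.10), with a difference of 0.41 (limma adjusted p = 8.75e-05), and was higher than DMSO with R4VPL3-1 (0.40, limma adjusted p = 1.1e-05), as was PVT1 (0.32, against 0.11 with VHL-r, which was not called).

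Factors that process the end of MALAT1, the subunits of RNase P, the nuclease ELAC2 and the triple-helix binder METTL16, showed few calls. Of 12 tested, 2 were lower with R4VPL3-1, POP1 (log2 -0.22) and POP7 (-0.19), and 2 with VHL-r, POP1 (-0.17) and METTL16 (-0.16), and none was higher. POP7 at -0.12 with VHL-r and METTL16 at -0.05 with R4VPL3-1 were not called. The share was 16.7% in each, beside 24.9% and 19.8% of all tested genes called, and 11.8% and 9.51% called lower. List medians were -0.05 and -0.11. Of 5 transcription factors known to act on NEAT1, 1 was higher and 2 lower with each compound (60.0%, beside 24.9% and 19.8% of all tested genes), with medians of -0.09 and -0.07. EPAS1, also known as HIF2A, was higher with R4VPL3-1 (138.4 against 86.9 normalized reads, log2 0.66, limma adjusted p = 0.00277) and with VHL-r (149.5, log2 0.78, limma adjusted p = 0.000772). HIF1A fell with both (-0.25 and -0.19), with 30.1% of its body on another gene, and so did ATF2 (-0.19 and -0.26). Between the compounds limma, edgeR and DESeq2 each called 0 of these 12 and 0 of these 5, beside 1.87% of all tested genes, with 1 and 0 at an unadjusted p under 0.05 in limma.

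The genes whose levels across the 9 libraries were most like each member's were named by Pearson's r of log2(normalized reads + 1), as a description over libraries that share treatment and depth. For NEAT1 they were ENSG00000268858 (r = 0.966), ZSCAN21 (0.962), BOD1 (0.951), EFCAB7 (0.946) and LMCD1-AS1 (0.938). ENSG00000268858, an unnamed long noncoding gene, differed by 0.56, -0.56 and 1.12 on the log2 scale for R4VPL3-1 against DMSO, VHL-r against DMSO and between the compounds, a likeness that its choice by r favours. For MALAT1 they were XRCC2 (0.958), GBP3 (0.950), ZNF550 (0.945), SLC16A1-AS1 (0.940) and ZNF12 (0.923), and for SFPQ CAMK2G (0.987), MIGA2 (0.987) and FCHSD1 (0.986).

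The 3 most like NONO were RRP9, TRAP1 and UNG (r = 0.967 to 0.961), the 3 most like PSPC1 were GAD1, PI4KAP2 and LINC01234 (0.970 to 0.959), and the 3 most like HNRNPK were H1-2, HNRNPC and SDHC (0.948 to 0.904). Among the members themselves, NEAT1 and MALAT1 had r = 0.804, with 91 genes closer to MALAT1 than NEAT1 was, and SFPQ and PSPC1 had r = 0.889, with 84 genes closer to PSPC1. The r between NEAT1 and the proteins was -0.04 for NONO, -0.12 for SFPQ, -0.29 for PSPC1 and -0.02 for HNRNPK.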

How the data were processed

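Libraries of poly(A)-selected RNA from A375R cells were read as single reads of 100 bases. Per the methods, the authors aligned them with STAR 2.5.3a to GRCh38 (Ensembl annotation release 109), counted reads per gene with htseq-count 2.0.2 in reverse mode and divided them by DESeq2 1.36.0 size factors. The deposited unit is this normalized signal, reads per gene after scaling, rounded to 2 decimals, and the values behaved as counts over whole gene bodies. Dividing by what 1 read is worth in each library gave whole reads for 100% of values above 0, within a tolerance of 0.006. Each library is 1 of 3 of its treatment. The limma p-values set a difference against the spread between these libraries, moderated with that of all tested genes. They say nothing about variation beyond these libraries.

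The test was limma 3.58.1 (R 4.3.3) with the trend option on log2(value + 1) for genes whose mean reached 10, as a single-factor fit of all 9 libraries, with Benjamini-Hochberg adjustment over 15230 genes. The fit was tested on simulated data. Alternatives were pseudocounts of 0.1 and 5, no filter or a mean of at least 50, TMM and upper quartile scaling, the robust option, a replicate block, edgeR 4.0.16 (quasi-likelihood) and DESeq2 1.42.0 on the recovered reads, only the 6 libraries compared, a threshold of 0.01, and each library left out.

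The 7 genes, the lists and the motifs were chosen with earlier results of these data known. All 7 are reported, and of each list the called genes with the 4 largest differences in a comparison. Genes tested within 250 kb of NEAT1 or MALAT1 are named where called, as are the 5 genes most like NEAT1 and MALAT1 and the 3 most like each other member. Lists were other paraspeckle proteins, nuclear speckle proteins, other long noncoding RNAs, MALAT1 end-processing factors, transcription factors acting on NEAT1 and cell type markers. Gene overlaps were taken from a GENCODE annotation of GRCh38, in which MALAT1 has other ends than in the deposited coordinates.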

Additional observations from a re-analysis of the deposited data

How the results depend on the processing

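Over 378 alternative values for the 6 tested genes, 345 kept their direction and side of the threshold, 14 lost a call and 4 gained one. The other 15 changed sign, and none of these was called. Single values that changed sign were HNRNPK with R4VPL3-1 against DMSO under TMM (0.0083), upper quartile scaling (0.0166) and edgeR (0.0086), and NONO in that comparison under upper quartile scaling (0.0081). With each library left out, differences with R4VPL3-1 against DMSO ranged from -0.119 to 0.138 for MALAT1, -0.0415 to 0.0186 for NONO and -0.0162 to 0.0199 for HNRNPK, with VHL-r from -0.0449 to 0.0152 for NONO, and between the compounds from -0.0215 to 0.0291 for NONO and -0.0399 to 0.0139 for SFPQ.

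The 2 calls with R4VPL3-1 became 1 with the robust option, DESeq2 or a threshold of 0.01, and 1 to 2 with each library left out. The 3 with VHL-r became 1 with the robust option, 2 with DESeq2 or a threshold of 0.01, and 2 to 3 with each library left out. The 1 between the compounds became 0 with the robust option and 1 to 2 with each library left out. At a threshold of 0.01, genes called overall fell to 2494 with R4VPL3-1 and 1885 with VHL-r, and with each library left out they ranged from 2857 to 3893, 2288 to 3210 and, between the compounds, from 182 (without R4VPL3-1 library 1) to 357. The causes were not tested, beyond the stricter threshold itself.

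With a replicate block, the calls between the compounds became 2, since MALAT1 passed (limma adjusted p = 0.00769). With the block, 4241 genes were called with R4VPL3-1, 3451 with VHL-r and 389 between the compounds. Without it the counts were 3792, 3016 and 285. The labels name no batch shared by libraries of one replicate number, although the running sample numbers in them are ordered by replicate number. In 9 same-number pairs the correlation of deviations was -0.006 to 0.121, over 0.1 in 2. A library correlated best with its own number in 12 of 18 cases, each with 3 libraries of the other treatment to choose from. Whether such libraries were paired in the experiment cannot be told from these values.

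Low values limit RBM14-RBM4, ZC3H6 and ENSG00000291174 by depth, 3 libraries limit the rest, and genes inside others cannot be read from these values.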
